A study of Mus musculus with 4 samples.

Results

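The killer lectin-like receptor genes were taken as every gene row whose symbol starts with Klr, which gave 26 of 32289 rows in both count matrices. Each of the 26 held at least 50 UMIs (unique molecular identifiers, 1 per captured RNA molecule) over NK, T, ILC3 and dendritic cells, from 75 for Klra2 and 81 for Klrg2 to 49512 for Klrb1b. The mice were untreated, 15 days of age and of the genotype Gm38411-iCre-hCD2 R26-tdTomato: the Gm38411 allele drives iCre together with human CD2 (hCD2) as a surface marker, and cells that have had the recombinase, or whose precursors had it, carry tdTomato. Mesenteric lymph nodes were taken. Cells that were CD3-, B220-, CD11c+, MHC-II+ and tdTomato+ were sorted into an hCD2- and an hCD2+ fraction. The same 12 mice, each with its own hashtag antibody, gave both fractions, and all animals carried the cassette and the reporter, so no group lacked them. Each fraction was 1 library, and fraction and library preparation cannot be told apart.

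The sort was made for dendritic cells (DCs), but both libraries also held lymphocytes with the transcripts of their types. In the hCD2- library 429 cells formed the NK or ILC1-like class, 935 the T cell-like class and 163 the ILC3 or LTi-like class. In the hCD2+ library the same classes held 53, 348 and 2302 cells. Below, NK cells stands for the NK or ILC1-like class, in which NK cells and ILC1s were not told apart. Dendritic classes were Prdm16 or Aire DC-like (980 cells, hCD2+), CCR7 migratory DC-like (942 hCD2- and 748 hCD2+), cDC1-like (271 and 97), cDC2-like (982 and 200) and pDC-like (103 and 32). The kept cells numbered 4762 (median 23846 UMIs) and 7099 (median 17486), with 5914558 to 17966298 UMIs per mouse and library. The 2 libraries shared 9 cell barcodes. In the hCD2- NK class all 14 NK markers were detected, with a summed level of 5471 to 7210 CPM (UMIs of a gene per 1000000 UMIs) over the 12 mice, while the T cell list summed to 547 to 855 CPM. Klr genes were kept out of the clustering and of the naming of classes, but the classes come from the same cells, so part of any difference between classes was given by the clustering. Levels are CPM summed per mouse over the cells of a class, and since a 3' library tags each transcript once they were not divided by gene length; how well each gene's 3' end was captured was not tested.

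Killer lectin-like receptors are C-type lectin-like proteins of the cell surface through which NK cells and some T cells read other cells. Inhibitory members bind MHC class I molecules or Clec2 proteins and recruit phosphatases through a motif in their tail. Activating members lack that motif and signal through adaptor proteins, such as Tyrobp (DAP12) for activating Ly49 receptors and Hcst (DAP10) for NKG2D. The Ly49 receptors (Klra genes) do in mice what the KIR receptors do in humans and are switched on gene by gene, so that single NK cells carry different sets. CD94 (Klrd1) forms dimers with the NKG2 proteins (Klrc1, Klrc2, Klrc3), NKG2D (Klrk1) does not pair with CD94, and the NKR-P1 receptors (Klrb1 genes) bind Clec2 ligands.

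The 26 genes all lie on chromosome 6 (GRCm38, GENCODE vM21), and 23 of them lie between 128609227 (Klrb1a) and 130386874 (Klra1). Klrg2 (38625693 to 38637242), Klrg1 (122270596 to 122282882) and Klra2 (131219223 to 131247362) lie outside that stretch. Of the 26, 23 were found in the RefSeq promoter table (GRCm38.p6); Klrg1, Klrd1 and Klri2 were not. Promoters are shown for 3 Ly49 genes with different cell types (Klra4 and Klra8 in NK cells, Klra17 in pDCs). They are also shown for the 2 NKR-P1 genes whose levels parted NK cells from ILC3s in the hCD2- library (Klrb1b and Klrb1c). Each line holds the 250 bases before the start, read 5′ to 3′ on the gene's own minus strand, and capitals mark a run or motif found by search.
Klra4: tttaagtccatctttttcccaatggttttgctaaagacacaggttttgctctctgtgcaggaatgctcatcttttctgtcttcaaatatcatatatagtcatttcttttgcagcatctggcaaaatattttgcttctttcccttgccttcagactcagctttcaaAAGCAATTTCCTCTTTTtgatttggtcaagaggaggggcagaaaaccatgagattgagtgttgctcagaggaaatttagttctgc
Klra8: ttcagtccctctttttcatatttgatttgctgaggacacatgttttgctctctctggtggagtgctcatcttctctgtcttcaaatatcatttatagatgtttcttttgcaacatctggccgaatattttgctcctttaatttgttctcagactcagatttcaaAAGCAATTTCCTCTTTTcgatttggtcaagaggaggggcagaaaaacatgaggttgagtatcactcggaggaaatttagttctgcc
Klra17: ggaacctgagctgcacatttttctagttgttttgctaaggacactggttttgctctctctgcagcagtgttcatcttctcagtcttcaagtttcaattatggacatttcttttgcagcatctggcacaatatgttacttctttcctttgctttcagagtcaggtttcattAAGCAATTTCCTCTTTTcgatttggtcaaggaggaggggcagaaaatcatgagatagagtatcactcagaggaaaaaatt
Klrb1b: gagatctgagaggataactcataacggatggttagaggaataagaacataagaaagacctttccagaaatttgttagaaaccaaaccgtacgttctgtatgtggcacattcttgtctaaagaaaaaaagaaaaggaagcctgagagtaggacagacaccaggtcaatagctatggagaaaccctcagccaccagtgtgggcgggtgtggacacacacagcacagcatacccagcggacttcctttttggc
Klrb1c: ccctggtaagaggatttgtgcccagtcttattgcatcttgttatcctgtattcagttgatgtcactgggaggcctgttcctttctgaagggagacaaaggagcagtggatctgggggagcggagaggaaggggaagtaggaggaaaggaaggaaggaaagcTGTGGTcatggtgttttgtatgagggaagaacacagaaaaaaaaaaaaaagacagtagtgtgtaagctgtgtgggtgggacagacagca

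These windows are chr6:130067272-130067521 (Klra4), chr6:130129899-130130148 (Klra8), chr6:129876673-129876922 (Klra17), chr6:128826316-128826565 (Klrb1b) and chr6:128788642-128788891 (Klrb1c). The starts used are those of RefSeq. In GENCODE vM21 Klrb1c reaches 128789215, so its whole window with the marked motif lies within that gene model. Klrb1b reaches 128826331 there, just inside its window. The capitals in the Ly49 promoters mark a 17-base run that these 3 share. It was found in 8 of 32851 promoters (0.0244%), which belong to 6 members (Klra3, Klra4, Klra6, Klra8, Klra9 and Klra17) and to Gm52487. The whole Klra4 window matched that of Klra8 at 84.5% of aligned positions, of Klra17 at 79.4% and of the other 8 Ly49 genes at 45.9% (Klra7) to 71.3% (Klra2). Klrb1b, at 45.9%, stood at the lower end of that range. In Klrb1c they mark TGTGGT, the Runx motif, searched on both strands and found in 8 of 23 members (34.8%), in 1 of 9 Ly49 genes (those other than Klra2 and Klra17) and in 14% of all promoters. Klrb1b held none of the 3 motifs searched and has no capitals. The T-box motif GGTGTGA was in 0 of 23 members against 3.33% of promoters, and the Tcf or Lef motif CTTTGAA in 2 of 23 against 4.46%; no matches overlapped. A match describes the letters and is not evidence of binding.

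**Figure D1:**
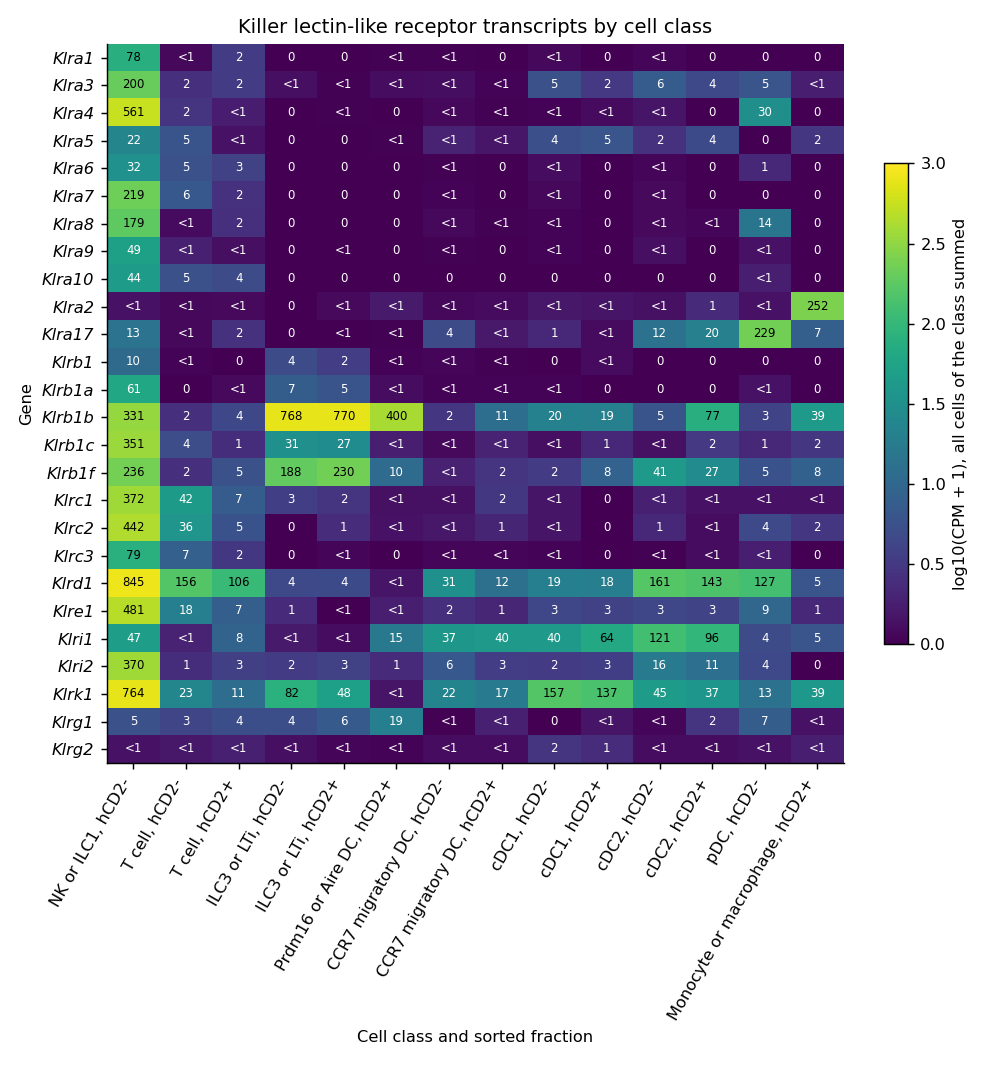
Level of each of the 26 genes (rows) in each cell class and fraction (columns), as log10(CPM + 1) of all cells of the class summed; the numbers in the cells are CPM. The NK column holds nearly every gene, Klrb1b and Klrb1f fill the ILC3 columns, and Klra2 stands in the monocyte or macrophage column (252 CPM, hCD2+).

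Summed over the 26 genes, the hCD2- NK class stood at 5821 ± 651 CPM (SD, n = 12 mice; 4750 to 6970). The ILC3 class followed with 1097 ± 47.8 CPM in hCD2+ (n = 12) and 1089 ± 162 CPM in hCD2- cells (n = 8). The other classes had lower means. Monocyte or macrophage-like cells stood at 468 ± 172 CPM in hCD2+ (n = 3) and pDCs at 461 ± 340 in hCD2- cells (n = 5). The pDC mice ranged from 292 to 1068 CPM (median 303), the highest within the 808 to 1292 of hCD2- ILC3s. That highest pDC mouse was mouse 5, in which 1 droplet held 77 Klra4, 39 Klrd1, 35 Klra8 and 22 Klrk1 UMIs. The level of this mouse without that droplet was not tested. Prdm16 or Aire DCs were at 446 ± 51.8 CPM, hCD2- cDC2s at 414 ± 31.1 and hCD2- T cells at 310 ± 73.1. hCD2- cDC1s were at 263 ± 39.9 CPM and hCD2- CCR7 DCs at 110 ± 13.9. The make-up of these sums differed as well. In NK cells the 3 leading genes were Klrd1 (14.6% of the family's UMIs), Klrk1 (13.2%) and Klra4 (9.68%). In ILC3s Klrb1b alone made 70.02% (hCD2+), and in Prdm16 or Aire DCs 88.8%. In cDC2s Klrd1 (38.6%) and Klri1 (29.1%) led, in cDC1s Klrk1 (60.7%), and in pDCs Klra17 (49.96%).

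In NK or ILC1-like cells of the hCD2- library, the CD94 and NKG2D genes Klrd1 and Klrk1 were the most abundant members. Klrd1, the CD94 chain, was at 717 to 1008 CPM (median 849) and Klrk1, which encodes NKG2D, at 642 to 1057 (median 766). Klrc2, whose product NKG2C is an activating partner of CD94, was at 442 ± 76.5 CPM, and Klrc1, whose product NKG2A is the inhibitory partner and reads the MHC class Ib molecule Qa-1, at 368 ± 76.2 (SD, n = 12 mice). Klrc3 (NKG2E) was lower, at 79.0 ± 12.0 CPM. Klre1, a receptor that pairs with the Klri1 or the Klri2 product, was at 478 ± 55.0 CPM; of the partners Klri2 was at 371 ± 42.6 and Klri1 at 47.2 ± 16.3. At least 1 UMI was found in 98.1% of the 429 cells for Klrk1, in 96.5% for Klrd1 and in 93.5% for Klrc2. Next came the NKR-P1 genes Klrb1f (91.1%) and Klrb1c (85.3%), then Klre1 (80.0%), Klri2 (79.02%), Klrb1b (69.7%), Klrc1 (67.8%) and Klrc3 (65.7%). With each cell thinned to 5000 UMIs, Klrk1 was seen in 95.1% of 412 NK cells (95% exact interval 92.6% to 97.0%) and in 3.63% of 908 T cells; median depths before thinning were 19884 and 17390 UMIs. Intervals and floors of this kind cover counting error only.

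The NKR-P1 genes were all read in NK cells. Klrb1c, the activating receptor known as NK1.1, ranged from 187 to 500 CPM (median 357) and Klrb1b, an inhibitory receptor for Clec2d, from 187 to 460 (median 341). Klrb1f, a receptor for Clec2i, was steadier at 191 to 292 CPM (237 ± 29.7), and Klrb1a, an activating form, was at 62.6 ± 27.1. Klrb1, which encodes NKR-P1G, was the least abundant at 10.4 ± 7.53 CPM. A Klrb1c UMI was seen, after thinning, in 81.3% ± 12.1 of cells with Klrb1b and in 53.6% ± 14.4 of cells without (SD over 12 mice, higher in 12 of 12). Gene models overlap at this place, where Gm44511 spans Klrb1c and Klrb1b. Of the 90-base stretches in the last 500 bases of all annotated Klrb1b transcripts, pooled, 14% (209 of 1494) also occur in Gm44511. A single transcript end can share a larger part. How shared reads were counted is not given in the sources used here.

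Among the Ly49 genes Klra4, the activating receptor Ly49D, led with 338 to 856 CPM (median 440). The 12 mice fell on both sides of a gap, with 7 mice at 338 to 456 CPM and 5 at 686 to 856, a gap of 44.5% of the range. For the 8 Ly49 genes other than Klra2, Klra4 and Klra17 the widest gap between neighbouring mice was 20.7% (Klra3) to 35.7% (Klra1) of the range. Klrk1 had a wider gap than Klra4, at 47.6%, while Klrb1a (40.8%), Klra17 (38.7%) and Klri2 (38.5%) came near. The gaps of Klrk1 and Klrb1a set 1 mouse apart from 11, while Klra17 split 8 to 4 and Klri2 4 to 8. Klra2 (79.0%) and Klrg2 (59.8%) had wider gaps at levels near 0. A gap of this size was thus not limited to Klra4. Each of these values rests on 26 to 46 NK cells, and the gap was noticed after the values were seen. Klra7 (Ly49G) was at 108 to 416 CPM (median 186), Klra3 (Ly49C) at 113 to 277 (median 204) and Klra8 at 41.6 to 325 (median 194), where Klra8 encodes Ly49H, which binds the m157 protein of cytomegalovirus. Klra1 (Ly49A) was at 78.1 ± 29.7 CPM, Klra9 (Ly49I) at 48.0 ± 29.8, Klra10 (Ly49J) at 43.8 ± 12.1, Klra6 (Ly49F) at 31.7 ± 19.2 and Klra5 (Ly49E) at 26.9 ± 36.7 (SD, n = 12). The level of Klra5 in mouse 3, 102 CPM, came from 1 cell with 58 UMIs. Near-identical 3' ends could split reads between copies. Of the 26 genes, 15 shared no 90-base stretch of the last 500 bases of their transcripts with any other gene. The largest shared part was 21.9% (Klrc1, with Klrc2). These parts pool the ends of all annotated transcripts of a gene (210 of 957 stretches for Klrc1). A single transcript end can therefore share a larger part.

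Single NK or ILC1-like cells differed in how many Ly49 genes, and how many UMIs of each, were read. The part of ILC1s in the shares below was not tested. A Klra4 UMI was found in 190 of 429 cells (44.3%), with a median of 25 UMIs in those cells. For Klra3 it was 29.1% of cells with a median of 13 UMIs, for Klra8 31.0% with 8, for Klra7 43.4% with 8 and for Klra1 19.3% with 6. Klra10 (34.7%) and Klra6 (24.0%) were read in many cells at a median of only 2 UMIs, and Klra9 in 17.2% at 4. At 5000 UMIs per cell, 28.0% ± 8.35 of NK cells had no UMI of the 9 Ly49 genes, 17.6% ± 6.99 had a UMI of 1 gene, 24.0% ± 8.29 of 2 genes and 30.5% ± 6.99 of at least 3 (SD over 12 mice, 412 cells). With all UMIs of each cell, 23.9% ± 8.90 had none, 13.4% ± 7.495 had 1 gene, 15.7% ± 6.18 had 2 and 47.01% ± 10.02 at least 3, so the last share depended on depth. The mean was 1.73 ± 0.241 genes per thinned cell and 2.47 ± 0.382 with all UMIs. Klra8 was seen in 36.5% ± 17.2 of cells with Klra4 and in 9.54% ± 4.98 of cells without, higher in 12 of 12 mice. Klra7 (42.7% ± 11.3 against 24.96% ± 10.9, higher in 10 of 12) and Klra3 (34.95% ± 12.2 against 18.7% ± 8.37, 11 of 12) gave the same order. For Klrc1 it was 54.4% ± 16.1 against 63.5% ± 15.8, higher in 5 mice and lower in 7. Cells with Klra4 were not matched for anything but thinned depth, and these shares carry no test.

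**Figure D2:**
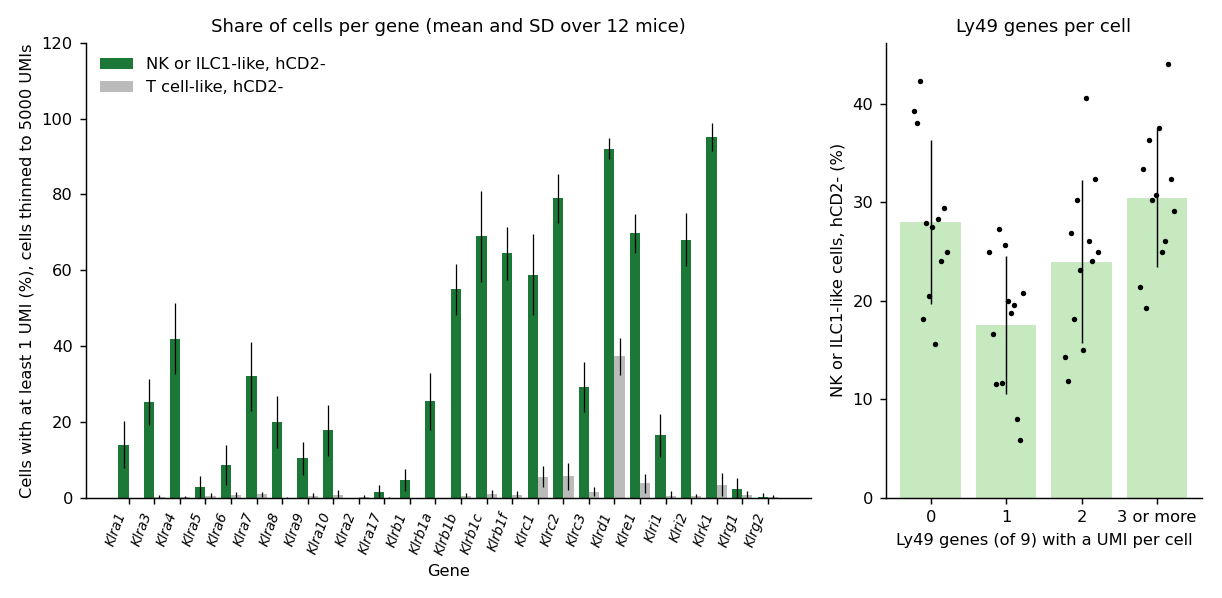
Left, share of cells with at least 1 UMI of each gene after thinning to 5000 UMIs, in NK or ILC1-like and T cell-like cells of the hCD2- library (mean and SD over 12 mice); right, share of NK cells (axis in percent) with 0, 1, 2 or at least 3 of 9 Ly49 genes, 1 point per mouse. Klrk1 was seen in near 95% of NK cells, Klrd1 in 379 of 412 and Klra4 in 42.5% of all NK cells pooled. The 4 kinds of cells on the right had means from 17.6% to 30.5%.

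Set against T cell-like cells of the same library, NK cells held more of most members. Of the 26 genes 19 passed the filter on low counts and were called higher in NK cells (edgeR, 12 mice in each arm), where 29% of all 8130 genes tested were called higher and 56% in either direction. All of the 19 but Klrd1 passed the filter through the NK arm only, so a difference was built into that count. With no filter 23 of 26 were called higher and 0 lower, with 6757 of 19119 genes called. Klrd1 stood at 857 ± 89.1 against 157 ± 28.6 CPM (127 to 218 in T cells, so the mice did not overlap; log2 2.42 ± 0.09, SE, adjusted p = 1.9e-20). Klrk1 stood at 773 ± 111 against 21.6 ± 20.4 CPM (5.06 ± 0.27, adjusted p = 2.2e-16) and Klri2 at 371 against 1.803 CPM (7.85 ± 0.18, adjusted p = 2.5e-25). Klra4 (8.06 ± 0.37) and Klra8 (9.03 ± 0.49) had the largest fitted differences among genes with more than 3 T cell UMIs. Klrb1a had no UMI in T cells and was at least 349-fold higher in NK cells, and Klra1 had 3 UMIs there (ratio 449, 95% interval 153 to 2182). Klra6 was called (2.77 ± 0.37, adjusted p = 1.7e-07), though its lowest NK mouse (13.3 CPM) lay just under its highest T cell mouse (13.5). The 7 genes not tested were Klrg2, Klrg1, Klrb1, Klra17, Klra5, Klra9 and Klra2.

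Adaptors, other receptors, regulators and ligands were read in the same fit. Of the adaptor and signalling list (16 genes) 15 were tested, 8 higher and 5 lower, with Tyrobp, the adaptor of the activating Ly49 receptors, at 800 ± 56.3 against 11.7 ± 5.49 CPM (5.96 ± 0.14). Plcg2 (4.96 ± 0.14) and Fcer1g (4.73 ± 0.16), a signalling enzyme and an Fc receptor chain, were higher too. Of other NK receptors 9 of 11 were higher and 2 lower (median log2 2.60, against 0.02 over all genes), with Cd244a at 202 ± 33.2 against 1.40 ± 1.29 CPM. Of NK gene regulators 6 of 8 were higher and 2 lower, with Id2 (2.53 ± 0.11), Nfil3 (2.26 ± 0.16) and Zeb2 (3.61 ± 0.27) among them. Of the ligands 3 of 7 were higher and 0 lower: H2-D1 (0.43), H2-K1 (0.29) and Ulbp1 (1.07).

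Among T cells of the hCD2- library the memory-like CD8 cells (sub-clusters 0 and 8) held more of several members than the naive-like ones (sub-clusters 1, 2 and 4). Beyond Cd8a and Cd8b1, sub-cluster 0 was named from 6 markers and sub-cluster 4 from 3, but sub-cluster 8 from Ly6c2 alone, with cell cycle genes among its leading genes, and sub-clusters 1 and 2 from 1 marker each. Klrd1 was the leading member in naive-like CD8 T cells, at 137 to 284 CPM (188 ± 36.2, n = 12 mice), and in memory-like cells it stood at 175 to 496 (315 ± 92.8, n = 10), with overlap between mice. Klrc2 was at 28.8 to 317 CPM (median 109) in memory-like cells against 0 to 9.45 in naive-like cells, and Klre1 at 32.8 to 206 (median 50.9) against 0 to 3.51, both without overlap. Only these 3 members passed the filter, Klrc2 and Klre1 through the memory-like arm alone, so no count is drawn from them. In this fit 10.8% of 5976 genes were higher in memory-like cells and 8.73% lower, and the members were higher too: Klrd1 by 0.75 ± 0.13 (adjusted p = 5.4e-05), Klrc2 by 5.52 ± 0.47 (6.5e-11) and Klre1 by 5.95 ± 0.46 (7.8e-12). With sub-clusters 0 and 4 alone (8 against 5 mice, chosen after the data were seen; 724 of 4508 genes called) Klrd1 was 1.39 higher (adjusted p = 9.4e-05), Klrc2 5.40 and Klre1 7.79. Klrc1 (139 ± 102 against 2.50 CPM) and Klrk1 (82.3 ± 61.7 against 1.42) were not tested. Klrc3 was at 24.5 CPM against no UMI, at least 51.7-fold higher. Ly49 genes were near 0 in naive-like cells, and in memory-like cells Klra7 (25.9 ± 38.9 CPM), Klra6 (18.5 ± 18.1), Klra5 (16.3 ± 24.4) and Klra10 (14.9 ± 10.7) varied about as much as their level, with Klra4 at a median of 0.819 CPM.

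Between NK cells and ILC3 or LTi-like cells of the hCD2- library the NKR-P1 genes went in different directions. Of 20 members tested 19 were higher in NK cells and 1, Klrb1b, was lower (12 against 8 mice; 27.3% of 7366 genes were higher and 25% lower). Only Klrb1b and Klrb1f passed the filter in both arms; the other 18 passed through the NK arm alone. Klrb1b, the inhibitory NKR-P1 receptor, ranged from 187 to 460 CPM in NK cells and from 664 to 846 CPM in ILC3s, without overlap (log2 -1.27 ± 0.12, adjusted p = 5.7e-10). Its neighbour Klrb1c went the other way, 187 to 500 CPM in NK cells against 4.24 to 64.0 in ILC3s (3.401 ± 0.276, adjusted p = 4.02e-11). Klrb1f lay between, at 191 to 292 against 111 to 215 CPM with overlap (0.31 ± 0.11, adjusted p = 0.020). That call did not hold with mouse as a block (0.28, adjusted p = 0.0764). It was also lost after thinning to 5000 UMIs (0.15, adjusted p = 0.469) and with at least 20 cells per mouse (0.11, adjusted p = 0.642). The other settings kept it. Ly49 genes were at or near 0 in 163 ILC3s: Klra4 was at least 466-fold, Klra7 at least 182-fold and Klra8 at least 149-fold higher in NK cells, and Klra3 had 1 UMI in ILC3s (ratio 498, 95% interval 89.3 to 19690). Klrd1 (7.91 ± 0.26), Klre1 (7.99 ± 0.26) and Klrc1 (6.87 ± 0.32) were near absent too, and Klrc2 had no UMI in ILC3s (at least 368-fold). Klrk1 was read in ILC3s at 5.50 to 265 CPM (81.7 ± 88.8), below each NK mouse (3.14 ± 0.33). Of adaptors 10 of 15 were higher in NK cells and 2 lower, with Tyrobp at 800 ± 56.3 against 176 ± 36.0 CPM (2.12 ± 0.09).

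Set against T cells, ILC3s were higher in 3 of 7 tested members and lower in 4 (8 against 12 mice; 57.8% of 8217 genes were called in either direction), of which 2 passed the filter through the ILC3 arm alone and 4 through the T cell arm alone. Klrb1b was at 771 ± 64.0 against 1.45 ± 2.72 CPM (8.84 ± 0.27, adjusted p = 5.6e-21), Klrb1f at 182 ± 35.8 against 1.59 ± 1.83 (6.80 ± 0.24) and Klrk1 at 81.7 ± 88.8 against 21.6 ± 20.4 (1.93 ± 0.51, adjusted p = 0.0021). The Klrk1 call was lost at Leiden resolution 2.0 (0.66, adjusted p = 0.208) and kept in the other settings where it was tested. Klrd1 (-5.51 ± 0.33), Klrc1 (-3.75 ± 0.79) and Klre1 (-3.35 ± 0.67) were lower in ILC3s, and Klrc2 was at 0 there (at least 29.7-fold lower). After thinning, a Klrb1b UMI was seen in 95.1% of 163 hCD2- ILC3s (exact interval 90.6% to 97.9%) and in 0.441% of 908 T cells (unthinned 99.4% and 1.18%; median depths 18342 and 17390 UMIs).

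The ILC3 level of these genes did not differ by the test between the sorted fractions. Of 6 members tested 0 were called (12 hCD2+ against 8 hCD2- mice; 1.07% of 9893 genes were higher, 1.53% lower and 2.6% called in all). At an unadjusted p under 0.05 it was 2 of 6, Klrb1f and Klrk1, and DESeq2 also called 0 of 6 after adjustment (1 at an unadjusted p under 0.05, Klrb1f). Klrb1b was at 739 to 828 CPM (767 ± 30.3) in hCD2+ and 664 to 846 (771 ± 64.0) in hCD2- ILC3s, with overlap (-0.05 ± 0.05, adjusted p = 0.679). Klrb1f was at 232 ± 22.4 against 182 ± 35.8 CPM (0.28 ± 0.09, adjusted p = 0.0971) and Klrk1 at 45.7 ± 17.8 against 81.7 ± 88.8 (-0.90 ± 0.39, adjusted p = 0.258). Klrb1c (28.1 ± 5.75 against 28.0 ± 22.3 CPM) and Klrb1a (5.03 ± 1.28 against 5.11 ± 4.38) had nearly equal means, and Klrg1 was at 6.22 ± 1.85 against 3.13 ± 3.55. These calls rested on where the class ended. With the unnamed cluster 19 joined to the ILC3s Klrb1f was higher in hCD2+ cells (0.37, adjusted p = 0.0071; 453 of 9897 genes called), and at the finer Leiden resolution of 2.0 both Klrb1f (0.71, adjusted p = 0.00045) and Klrb1b (0.54, adjusted p = 5.4e-06) were. At that resolution 2344 of 9145 genes were called, 25.6% against the 2.6% above, so the whole comparison changed and not these members alone.

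**Figure D3:**
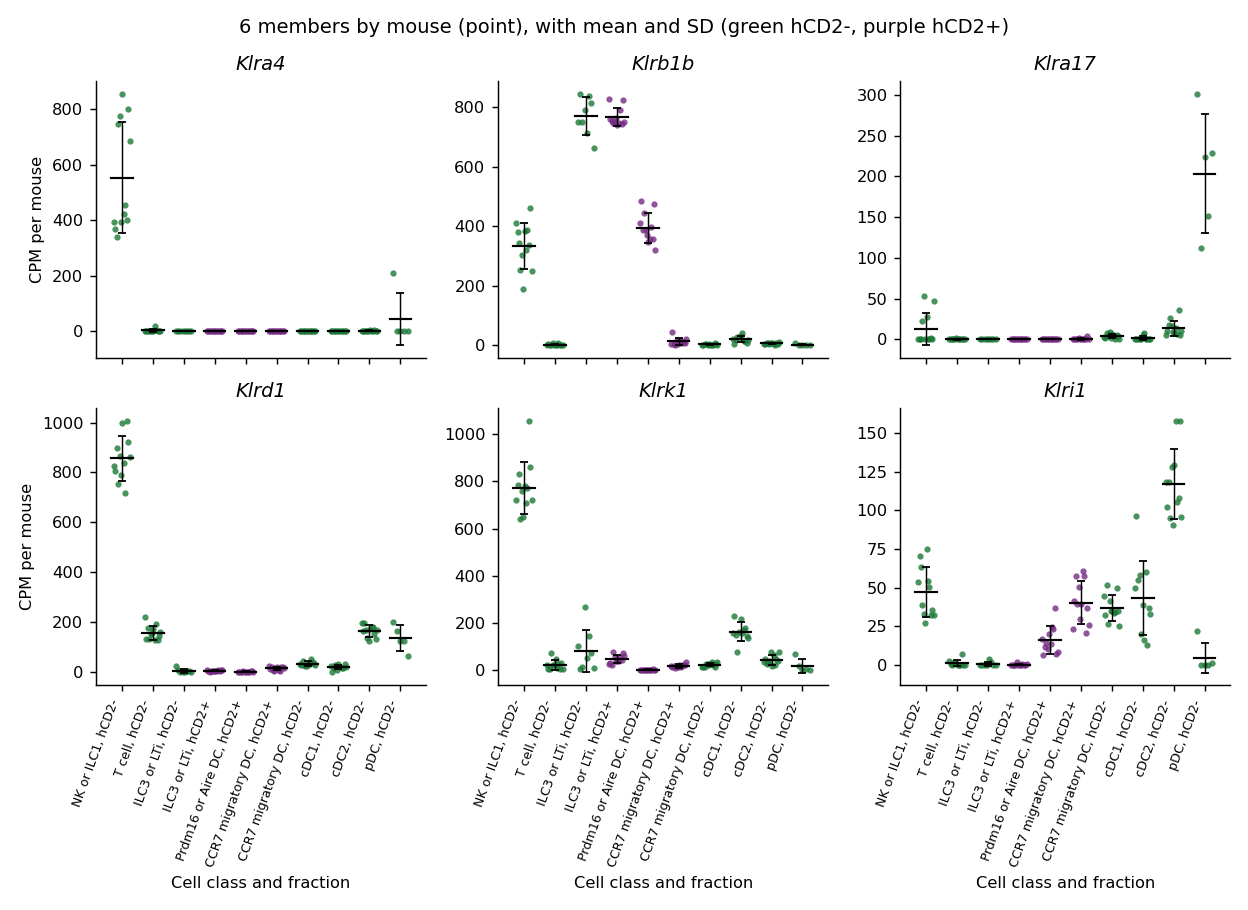
CPM per mouse (points) of Klra4, Klrb1b, Klra17, Klrd1, Klrk1 and Klri1 by cell class and fraction, with mean and SD; green is hCD2-, purple hCD2+. Among the classes shown, Klra4 and Klrd1 peak in NK cells and Klrb1b in ILC3s (664 to 846 CPM), above Prdm16 or Aire DCs (321 to 485 CPM). Klra17 peaks in pDCs and Klri1 in cDC2s. NK cells of the hCD2+ library are not shown.

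Prdm16 or Aire DC-like cells, of which the hCD2- library held only 15, were the dendritic cells with the most Klrb1b. In the hCD2+ library they held 321 to 485 CPM (395 ± 51.2, n = 12 mice), below the 739 to 828 CPM of ILC3s in every mouse (0.75 ± 0.05 higher in ILC3s, adjusted p = 9.0e-14). Of 6 members tested in this pair 4 were higher in ILC3s and 2 lower (41% of 10605 genes were higher, 40.3% lower and 81.4% called in all), 2 of them passing the filter through each arm alone. Klrb1f (232 ± 22.4 against 10.3 ± 2.44 CPM; 4.29 ± 0.08), Klrb1c (28.1 ± 5.75 against 0.842 ± 0.550; 4.89 ± 0.20) and Klrk1 (45.7 ± 17.8 against 0.534 ± 1.08; 6.30 ± 0.39) went with Klrb1b. Klrg1, an inhibitory receptor that binds cadherins, was lower in ILC3s, at 2.45 to 8.64 CPM against 8.78 to 30.4 (-1.799 ± 0.193, adjusted p = 1.0e-09). Klri1 was at 0.196 ± 0.489 against 16.0 ± 8.92 CPM (-5.90 ± 0.46). Of other NK receptors 7 of 8 were higher in ILC3s, such as Cd96 (4.72 ± 0.10), and 1 was lower, Slamf7, at 7.33 ± 2.20 against 683 ± 46.7 CPM. Hcst, the adaptor of NKG2D, was at 84.9 ± 7.10 against 7.31 ± 1.797 CPM (3.34 ± 0.09), and Clec2d, the ligand of the Klrb1b product, at 61.1 ± 9.88 against 130 ± 20.6 (-1.31 ± 0.08).

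Members were also set against CCR7 migratory DC-like cells of the same library, a pair chosen after the levels were seen. Here 3 of 5 tested members were higher in Prdm16 or Aire DCs and 2 lower. In this fit 38.5% of 9628 genes were higher, 35.4% lower and 73.9% called in all. Of the 5 members, 3 passed the filter through the Prdm16 or Aire DC arm alone and 1 through the other. Klrb1b was at 321 to 485 CPM against 0.510 to 42.0 (4.88 ± 0.27, adjusted p = 1.0e-15), without overlap. Klrg1 (18.3 ± 7.06 against 0.925 ± 1.75 CPM; 4.13 ± 0.41) and Klrb1f (10.3 ± 2.44 against 2.06 ± 2.19; 2.14 ± 0.30) were higher, and Klrk1 (0.534 ± 1.08 against 16.6 ± 7.23; -5.23 ± 0.40) and Klri1 (16.0 ± 8.92 against 40.2 ± 13.9; -1.60 ± 0.23) lower. Of the ligand list 7 of 8 tested were lower in Prdm16 or Aire DCs and 0 higher, among them the Qa-1 gene H2-T23 (287 ± 31.3 against 448 ± 29.4 CPM; -0.89 ± 0.06). After thinning, Klrb1b was seen in 55.6% of 932 Prdm16 or Aire DCs (exact interval 52.3% to 58.8%; unthinned 68.4%), in 3.76% of 718 CCR7 DCs (unthinned 11.9%) and in 2.19% of 319 T cells (unthinned 6.03%) of the hCD2+ library. Median depths were 32159, 32821.5 and 17225.5 UMIs. Droplets without cells held 279 CPM of Klrb1b in this library, more than the 3.50 ± 3.26 CPM of its T cells. The CCR7 DCs of this library also held the Prdm16 or Aire DC marker list, at a summed 921 CPM (516 to 1532 per mouse). That list stood at 5041 CPM in Prdm16 or Aire DCs and at 139 CPM in hCD2- CCR7 DCs. Its part in the differences between the 2 classes was not tested.

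The Klrb1b of Prdm16 or Aire DCs came from 1 of the 2 clusters that make up the class. Cluster 30 (627 cells) held 481 to 646 CPM (553 ± 59.1) and cluster 26 (353 cells) 9.56 to 74.4 (34.6 ± 22.3), without overlap over the 12 mice. Klrb1f was at 8.53 to 21.2 CPM against 0 to 6.33, also without overlap, and Klrg1 at 23.2 ± 8.40 against 7.07 ± 6.77 (higher in cluster 30 in 12 of 12 mice). For Klri1 it was 20.5 ± 12.5 against 5.21 ± 8.67 CPM, higher in 11 of 12 mice. Cluster 30 was also the cluster with more Prdm16 (3320 ± 385 against 1938 ± 202 CPM) and Gm38411 (110 ± 13.04 against 34.8 ± 8.52), and cluster 26 the one with Aire (560 ± 114 against 16.5 ± 10.2) and Ccr7 (1801 ± 215 against 237 ± 85.5). These values were looked at after the clusters were seen and carry no test.

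**Figure D4:**
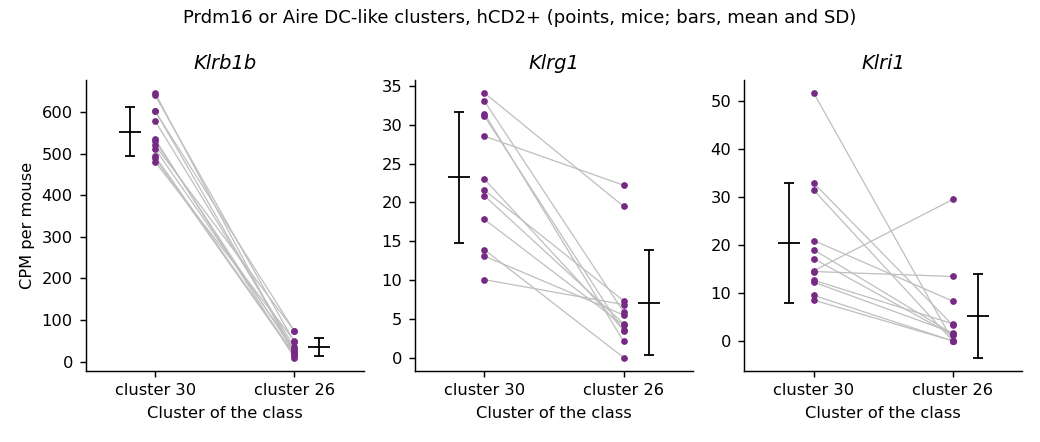
CPM per mouse of Klrb1b, Klrg1 and Klri1 in clusters 30 and 26 of the Prdm16 or Aire DC-like class, hCD2+ library; points are mice, grey lines join the same mouse, bars are mean and SD. Every mouse had over 480 CPM of Klrb1b in cluster 30 and at most 74.4 in cluster 26.

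In cDC2-like cells the family was led by Klrd1 and Klri1. Klrd1, the CD94 chain, was at 122 to 196 CPM (163 ± 23.7, n = 12 mice, hCD2-) while the NKG2 genes Klrc1 and Klrc2 stood at medians of 0.612 and 0.718 CPM. Klri1 was at 90.6 to 158 CPM (117 ± 22.7), with its partner Klre1 at 3.41 ± 1.45. Klrb1f was at 32.3 to 53.9 CPM with Klrb1b at 5.09 ± 2.68, the reverse of their order in ILC3s. Against these cells 6 of 6 tested members were lower in CCR7 migratory DCs (12 mice in each arm; 41.6% of 9460 genes were lower, 36.9% higher and 78.5% called in all). Klrd1 was at 23.5 to 52.8 CPM there (-1.95 ± 0.11, adjusted p = 9.2e-16), Klri1 at a median of 34.9 with at most 51.8 (-1.28 ± 0.12) and Klrb1f at 0 to 4.08 (-5.02 ± 0.24, adjusted p = 1.9e-17), all without overlap. Klri2 (-1.06 ± 0.25), Klra17 (-1.29 ± 0.37) and Klrk1 (-0.60 ± 0.22, adjusted p = 0.017) were lower with overlap. The ligand list went the other way, with 7 of 8 higher and 1 lower (median log2 1.47, against -0.05 over all genes): Clec2d was at 283 ± 22.0 against 70.1 ± 7.74 CPM (2.40 ± 0.06), H2-K1 at 1779 ± 96.3 against 724 ± 59.0 (1.68 ± 0.04) and H2-D1 at 1632 ± 95.9 against 824 ± 75.3 (1.37 ± 0.05).

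cDC1-like cells carried Klrk1. Their level was 76.9 to 229 CPM (161 ± 40.2, n = 11 mice) against 18.2 to 77.8 CPM in cDC2s (42.2 ± 20.2), so that the highest cDC2 mouse lay just above the lowest cDC1 mouse (1.94 ± 0.20, adjusted p = 4.4e-09). This pair was also chosen after the levels were seen. Of 7 tested members 2 were higher in cDC1s, Klrk1 and Klrb1b (19.4 ± 11.0 against 5.09 ± 2.68 CPM; 1.99 ± 0.30), and 5 were lower (58.5% of 9076 genes were called), 3 of which passed the filter through the cDC2 arm alone. Those were Klrd1 (18.3 ± 9.36 against 163 CPM; -3.05 ± 0.18), Klri1 (-1.47 ± 0.21), Klri2 (-2.78 ± 0.33), Klrb1f (-3.96 ± 0.22) and Klra17 (-3.31 ± 0.56). A Klrk1 UMI was seen after thinning in 46.6% of 264 cDC1s (exact interval 40.5% to 52.8%), 11.8% of 904 cDC2s and 3.63% of 908 T cells (unthinned 90.8%, 23.2% and 6.10%; median depths 42394, 28113.5 and 17390 UMIs).

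In pDC-like cells Klra17, the inhibitory Ly49Q receptor known from these cells, was the leading member. It was at 113 to 302 CPM in the 5 hCD2- mice with enough pDCs (median 223) and at 4.83 to 36.5 CPM in cDC2s (median 9.73), without overlap (3.997 ± 0.318, adjusted p = 3.8e-10). After thinning, 45.9% of 98 hCD2- pDCs held a Klra17 UMI (exact interval 35.8% to 56.3%), as did 64.5% of 31 hCD2+ pDCs (45.4% to 80.8%), against 3.87% of cDC2s and 0.110% of T cells (unthinned 73.8%, 78.1%, 10.5% and 0.107%). Of 7 members tested 1 was higher in pDCs and 3 were lower (52.6% of 10042 genes were called; 5 of the 7 passed the filter through the cDC2 arm alone): Klri1 (4.63 ± 9.58 against 117 ± 22.7 CPM; -4.66 ± 0.44), Klrb1f (-2.96 ± 0.43) and Klri2 (-2.32 ± 0.69, adjusted p = 0.0067). Klrd1 was at 61.4 to 201 CPM in pDCs, near the 122 to 196 of cDC2s (-0.38 ± 0.18, adjusted p = 0.083). It was called lower after thinning to 5000 UMIs (-0.79, adjusted p = 0.0079) and with no filter (-0.45, adjusted p = 0.042). Apart from these and the fit without mouse 5, no setting called Klrd1. Klrk1 (-1.40 ± 0.63) and Klra3 (0.09 ± 0.68) did not pass. In mouse 5, 1 droplet of the class held 77 Klra4, 35 Klra8 and 19 Klre1 UMIs beside 38 Siglech and 106 Ccl5. Without that mouse 8 of 8 members tested were called, 1 higher and 7 lower (5041 of 10200 genes were called), among them Klrk1 (-3.44, adjusted p = 0.0014), Klra3 (-3.17, 0.0077) and Klrd1 (-0.60, 0.010). Of ligands 6 of 9 were higher in pDCs and 3 lower, where 23.1% of all genes tested were higher and 29.5% lower. H2-T23 was at 483 ± 33.3 against 182 ± 23.6 CPM (1.38 ± 0.09) and Cdh1, a ligand of Klrg1, at 146 ± 39.9 against 1.74 ± 3.85 (6.21 ± 0.51).

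Klra2, which encodes Ly49B, was a gene of monocyte or macrophage-like cells. Its level there was 252 CPM in hCD2+ cells (204 to 403 in 3 mice) and 230 in 51 hCD2- cells, against at most 1.36 CPM in every other named class. After thinning, a UMI was seen in 52.4% of 103 hCD2+ and 51.2% of 41 hCD2- cells of this class (unthinned 66.7% and 64.7%; median depths 19163 and 21250 UMIs). The class held 10 or more cells in 3 hCD2+ mice and 1 hCD2- mouse, too few for a test.

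Over all kept cells, the fractions differed in most members. Of 25 members tested 3 were higher in hCD2+ cells and 20 lower (12 mice in each arm), where 33.9% of 13236 genes were higher and 33.9% lower. The filter was passed through the hCD2- arm alone by 14 of them and through the hCD2+ arm alone by 2. The higher ones were Klrb1b, at 274 to 470 CPM (median 391) against 41.4 to 127 (median 57.6) without overlap (2.54 ± 0.14, adjusted p = 4.9e-14), Klrb1f, at 65.6 to 107 against 26.1 to 58.5 (1.23 ± 0.10), and Klrg1, at 3.05 to 12.0 against 0.503 to 3.15 (2.20 ± 0.28). The largest falls were in Ly49 genes: Klra8 was at 0 to 2.21 CPM against 3.42 to 32.8 (-5.63 ± 0.53, adjusted p = 7.0e-10) and Klra4 at 0 to 8.05 against 20.1 to 86.8 (-5.42 ± 0.48, adjusted p = 2.2e-10). Klre1 (-3.401 ± 0.299), Klrc2 (-3.34 ± 0.31), Klrc1 (-2.78 ± 0.32), Klrd1 (-2.52 ± 0.15) and Klrk1 (-1.71 ± 0.16) were lower as well. Klrb1 (0.25 ± 0.26, adjusted p = 0.405) and Klra2 (1.13 ± 0.64, adjusted p = 0.117) were not called, but Klra2 was higher in 12 of 12 mice and passed with mouse as a block (1.33 ± 0.29, adjusted p = 0.00079). In such sums, fewer cells of a type and less RNA per cell cannot be told apart. The NK class made up 0.724% ± 0.430 of hCD2+ and 9.45% ± 2.61 of hCD2- cells (n = 12).

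**Figure D5:**
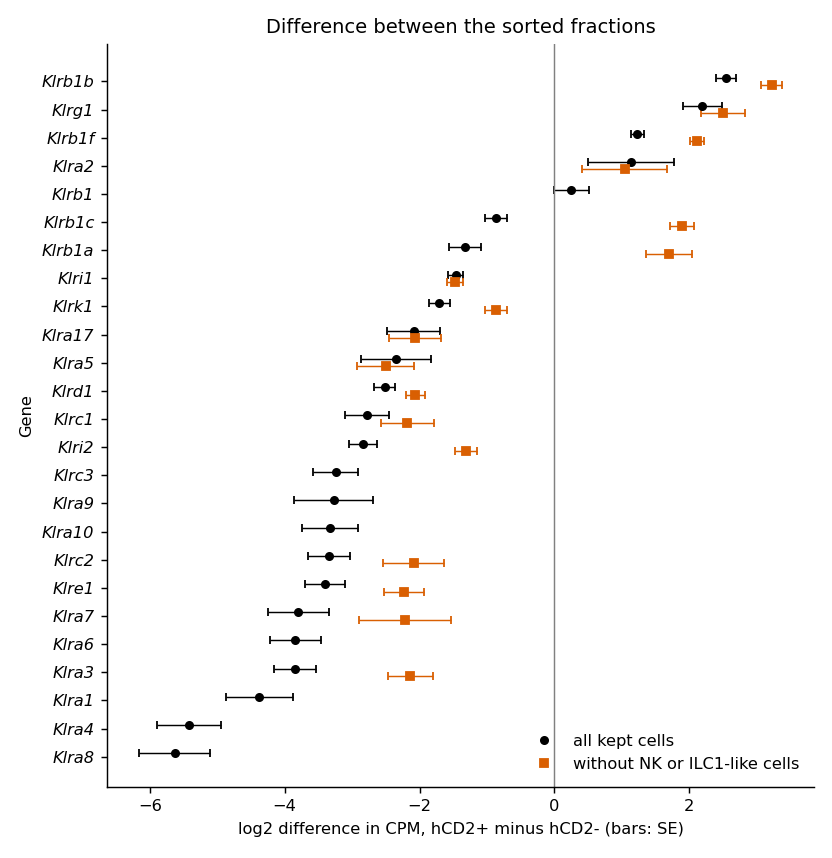
Log2 difference, hCD2+ minus hCD2-, of each tested member with its SE, over all kept cells (black) and without NK or ILC1-like cells (orange). Klrb1a and Klrb1c stand below 0 with NK cells (-1.33 and -0.86) and above 0 without them (1.70 and 1.90).

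With the NK class left out, 17 members could be tested, 5 higher and 11 lower, with 4452 of 13147 genes higher and 4390 lower. Klrb1c then rose to 1.90 ± 0.18 (adjusted p = 7.1e-10) and Klrb1a to 1.70 ± 0.34 (adjusted p = 9.4e-05), the reverse of their direction over all cells. Of the adaptor list 11 of 15 were lower in hCD2+ cells and 3 higher over all cells, with Fyn at 191 ± 34.2 against 449 ± 29.2 CPM (-1.26 ± 0.07), Ptpn6, a phosphatase recruited by inhibitory receptors, at 72.8 ± 6.16 against 119 ± 12.0 (-0.73 ± 0.05), and Sh2d1b1 at -2.04 ± 0.15. Clec2i, the ligand of the Klrb1f product, was higher, at 139 ± 15.5 against 70.2 ± 7.498 CPM (0.97 ± 0.06).

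NK or ILC1-like cells of the hCD2+ library were only 53, with fewer than 10 in every mouse, so the fractions were not tested within the class and pooled values are given with 95% Poisson intervals. Klrb1b stood at 826 CPM (773 to 881; 907 UMIs) against a pooled 331 CPM in hCD2- NK cells, and Klra4 at 136 CPM (115 to 159) against 561. Klra8 was at 23.7 CPM (15.5 to 34.7) against 179 and Klra1 at 4.55 (1.48 to 10.6) against 78.0. Klrk1 (979 against 764 CPM), Klrc1 (502 against 372), Klrb1c (484 against 351) and Klrd1 (694 against 845) lay closer together. After thinning, Klrb1b was seen in 88.2% of 51 cells (exact interval 76.1% to 95.6%) against 55.1% of 412 (50.2% to 59.97%), and Klra4 in 9.80% (3.26% to 21.4%) against 42.5% (37.7% to 47.4%). Unthinned, these shares were 94.3% against 69.7% and 11.3% against 44.3%. Thinned T cells of the 2 libraries held Klrb1b in 2.19% and 0.441% and Klra4 in 0.313% and 0.220%. A Klra1 UMI was left in 0 of 51 thinned cells, which allows a share of cells with a UMI of up to 5.88% and sets no limit on cells that express it; unthinned, 1 of 53 cells held 5 UMIs. The hCD2+ NK class also held more of the ILC3 marker list, 1825 CPM over 12 of 12 markers against 131 to 690 CPM per mouse in hCD2- NK cells, while Ncr1 was at 424 against 305 and Eomes at 153 against 337. The part of these transcripts in the Klrb1b and Klra4 values was not tested.

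T cell-like cells of the hCD2+ fraction held less of the NKG2 genes Klrc1 and Klrc2, while the calls of Klrd1 (CD94) and Klre1 depended on the setting. Of 5 members tested 0 were higher in hCD2+ T cells and 4 lower (11 against 12 mice; 27.5% of 8440 genes were higher and 23.2% lower; Klrc1, Klrc2 and Klre1 passed the filter through the hCD2- arm alone): Klrc2 (5.34 ± 8.84 against 31.7 ± 21.3 CPM; -2.75 ± 0.57, adjusted p = 0.00034), Klrc1 (5.31 ± 10.6 against 39.5 ± 27.4; -2.65 ± 0.55), Klre1 (-1.28 ± 0.50, adjusted p = 0.035) and Klrd1 (109 ± 42.5 against 157 ± 28.6; -0.55 ± 0.17). The mice overlapped for all 4. The Klrd1 call was lost after thinning to 5000 UMIs (-0.078, adjusted p = 0.771) and with at least 5 cells per mouse (-0.436, adjusted p = 0.0508). Klre1 was not called with DESeq2 (-0.99, adjusted p = 0.190) or with at least 20 cells per mouse (-1.04, adjusted p = 0.0913). Klrk1 did not pass (-1.02 ± 0.54, adjusted p = 0.116) but did with mouse as a block (-1.38, adjusted p = 0.0017). Cluster 23, T cells of high UMI counts, held 64 hCD2+ and 10 hCD2- cells. Without it 181 of 7309 genes were called, against 4278 of 8440 with it. Then 2 of 4 members were called, and Klrd1 (-0.0026, adjusted p = 1.0) and Klre1 (-0.41, adjusted p = 0.722) were not.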

How the data were processed

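UMI counts per gene and cell barcode were deposited by the authors as 1 raw matrix per fraction with a table of hashtag assignments; Cell Ranger 8.0.1 and mm10 are named in the submitters' processing notes, and multiplets and blanks were marked in the deposited tables. The libraries were 10x 3' v4, per the labels. From these counts, cells were kept if they had 1 hashtag, no fewer than 500 genes and a mitochondrial share of UMIs up to 10%. Hashtag multiplets (806 hCD2+ and 465 hCD2-), blanks and unassigned barcodes were dropped. Clusters with markers of both DCs and T cells stayed unnamed. The T cell-like class still held sub-clusters 5 (37 cells) and 6 (33 cells), which got no subset name. DC markers were among their leading genes (Ccl22, Il12b and Fscn1 in 5, Adgrl3 and Cd209a in 6). Cells were clustered with scanpy 1.11.5 (2000 variable genes without Klr or pathway genes, 30 components, 15 neighbours, Leiden 1.0) and a cluster was named by its most markers at least 2 times up and in at least 10% of cells, with at least 3 needed. T cell sub-clusters were named at 1.5 times, CD8 ones from Cd8a, Cd8b1 and at least 1 further marker against the other CD8 sub-clusters. UMI counts were summed per mouse and class (at least 10 cells) and tested with edgeR 4.0.16 (quasi-likelihood, TMM, Benjamini-Hochberg over all genes, threshold 0.05) on R 4.3.3; DESeq2 1.42.0, RLE factors, no filter, thinning to 5000 UMIs, other cell minimums, other resolutions and left-out mice were alternatives. The script was tested on simulated data. A fold against a group at 0 uses 3 counts over the group.

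The mouse is the replicate; both fractions of a mouse share its hashtag, so samples pair by animal. Paired deviations correlated at 0.0537 to 0.524 over 8810 genes (mean 0.357, over 0.1 in 11 of 12 pairs; across genes, which are not independent), against -0.0322 for unequal mice. The main fit had no mouse block. Every Klr gene with at least 50 UMIs may be named; of each pathway list at most 3 called genes per comparison, by smallest adjusted p, are named with their fits. The members, lists and tests were chosen with earlier results of these data known, and the pairs Prdm16 or Aire DCs against CCR7 DCs and cDC1s against cDC2s, values by cluster within a class and the gap in Klra4 between mice were added after values were seen.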

Additional observations from a re-analysis of the deposited data

Results flagged for a closer look

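Dixon's test at its 95% value could be run in 22 gene and class groups with 4 to 10 mice. In 11 of them 1 mouse stood far from the others. The usual rate of 1 flag in 20 by chance holds for normally distributed values, and several of these groups are sparse counts. For Klra3 and Klri2 in hCD2- ILC3s all other mice were at 0, so any UMI in 1 mouse is flagged. The number of flags therefore does not measure an excess over chance. In memory-like CD8 T cells of the hCD2- library mouse 11 held 317 CPM of Klrc2 (next mouse 162) and 206 CPM of Klre1 (next mouse 72.9). In hCD2- ILC3 or LTi-like cells the flags rest on few UMIs: Klra3 at 2.93 CPM in mouse 5 was 1 UMI, Klrc1 at 16.97 CPM and Klrd1 at 21.2 CPM in mouse 1 were 4 and 5 UMIs, and Klri2 at 26.9 CPM in mouse 6 was 7 UMIs. In hCD2- pDC-like cells mouse 5 stood apart for Klra3 (32.6 CPM), Klrb1f (21.7 CPM), Klri1 (21.7 CPM), Klri2 (13.6 CPM) and Klrk1 (67.9 CPM). The 1 droplet described in the report held 12, 8, 7, 4 and 22 of that mouse's UMIs of these genes.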

How the results depend on the processing

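Over 979 refits of single members, 945 kept direction and call, 10 lost the call, 13 gained it and 11 changed sign; RLE factors changed none of 116 and DESeq2 2 of 114 (Klra2 over all cells gained, Klre1 in T cells lost). Counts of called members stayed within 1.5 times in 94 of 121 refits. The others are given as members called of members tested, with the share of all genes called in the same fit. Thinning to 5000 UMIs, which leaves fewer genes to test, gave 15 of 15 over all cells (60.4%), 0 of 1 in T cells (14.8%), 12 of 12 for NK against T (1963 of 3926 genes), 12 of 13 for NK against ILC3 (47.2%), 3 of 3 for ILC3 against T (50.5%), 2 of 2 for ILC3 against Prdm16 or Aire DC (73.5%), 3 of 3 for CCR7 DC against cDC2 (73.0%), 1 of 1 in CD8 T cells (13.4%), 1 of 1 for Prdm16 or Aire DC against CCR7 DC (65.8%) and 3 of 3 for cDC1 against cDC2 (53.4%). No filter, which tests more members, gave 1 of 20 between ILC3 fractions (1.23%), 10 of 26 in T cells (26.3%), 14 of 26 for ILC3 against T (36.8%), 12 of 22 for ILC3 against Prdm16 or Aire DC (59.0%), 9 of 25 for pDC against cDC2 (31.0%), 16 of 23 in CD8 T cells (9.86%) and 10 of 22 for Prdm16 or Aire DC against CCR7 DC (48.2%). Between ILC3 fractions 1 of 10 was called with at least 20 cells (1.89%), 1 of 7 at Leiden 0.5 (4.54%), 2 of 4 at Leiden 2.0 (25.6%) and 1 of 7 with cluster 19 (4.58%); for ILC3 against T it was 4 of 4 with at least 5 cells (61.5%) and 3 of 4 at Leiden 2.0 (63.8%). Without cluster 23 it was 2 of 4 between T cell fractions (2.48%), and with CD8 sub-clusters 0 and 4 alone 5 of 5 (16.1%). Leaving out each pDC mouse gave 4 to 8 called of 8 tested (4758 of 10235 to 5125 of 10259 genes), and Klra3 from -3.17 (without mouse 5) to 0.64. NK cells held 2.47 Ly49 genes per cell with all UMIs. Signs changed for Klrb1a (1.70) and Klrb1c (1.90) over all cells without NK cells. Between ILC3 fractions they changed for Klrg1 (-0.33, at least 20 cells), Klrb1c (0.10 at Leiden 0.5, 0.30 at Leiden 2.0, 0.20 with cluster 19) and Klrb1b (0.0021, 0.54 and 0.012), and Klra3 in pDCs was -0.051 with at least 5 cells. Causes were not tested.

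With mouse as a block, 103 of 107 members kept their call: Klra2 over all cells and Klrk1 in T cells and pDCs gained it, and Klrb1f in NK against ILC3 lost it. Blocked counts, in the same form, were 24 of 25 over all cells (71.0%), 0 of 4 between ILC3 fractions (1.45%), 5 of 5 between T cell fractions (48.9%), 19 of 19 for NK against T (55.6%), 17 of 18 for NK against ILC3 (48.1%), 5 of 5 for ILC3 against T (54.7%), 6 of 6 for ILC3 against Prdm16 or Aire DC (81.3%), 5 of 6 for pDC against cDC2 (43.1%), 6 of 6 for CCR7 DC against cDC2 (78.3%), 3 of 3 in CD8 T cells (19.7%), 5 of 5 for Prdm16 or Aire DC against CCR7 DC (73.4%) and 5 of 5 for cDC1 against cDC2 (55.6%). The fractions could not be fitted within NK cells, where 0 mice had 10 hCD2+ cells; other resolutions gave no CD8 sub-clusters and at least 20 cells no pDC value, so these were not run.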

Other observations

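Cluster 18, left unnamed because it held T and NK markers (97 hCD2- cells), also held Ly49 genes. Its pooled levels were 125 CPM of Klra7 (219 in the hCD2- NK class), 68.3 of Klra1 (78.04), 56.4 of Klra5 (22.5) and 45.2 of Klra6 (31.8), with 0.68 CPM of Klra4 (561). Klrd1 was at 200.04 CPM there, Klrc1 at 114, Klrk1 at 82.9, Klre1 at 76.4, Klrb1c at 56.7 and Klrb1b at 10.9. No test was made.

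Foxp3+ T cells held Klrg1 at 24.0 CPM in 61 hCD2- cells (27 UMIs) and at 4.54 CPM in 56 hCD2+ cells, with Klrd1 at 0.89 CPM in the hCD2- cells. Of these cells 56 hCD2- and 19 hCD2+ came from T sub-cluster 9, and 5 and 37 from sub-cluster 10, and median depths were 15545 and 48031.5 UMIs; the part of either in the Klrg1 values was not tested. In cDC2-like cells the hCD2+ fraction held 77.5 CPM of Klrb1b pooled over 200 cells, against 4.98 CPM of Klrb1b in hCD2- cDC2s. The Prdm16 or Aire DC marker list moved with it, at a summed 488 CPM in hCD2+ (10 of 10 markers; 8.97 to 1342 CPM per mouse) against 9.49 CPM in hCD2- cDC2s (9 of 10, Pigr at 0; 1.62 to 24.1), and its part was not tested.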
